A study of Mus musculus with 23 samples.

Results

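GTML tumours were compared with normal adult cerebellum across 18194 genes. The comparison takes the 4 arrays titled GTML and the 4 arrays titled adult cerebellum, chosen by their sample titles alone, out of 23 arrays in the series. GTML tumours are sporadic cerebellar tumours driven by overexpression of the Mycn oncogene. In the model's name, Glt1 stands for the promoter of the glial glutamate transporter that drives the transgene switch, MycN for the oncogene and Luciferase for its reporter. They were set beside non-neoplastic cerebellum of adult mice. Every sample in both groups is labelled strain CD1, and age, sex and the stage at which tumours were taken are not given in the sources used here. No label says whether the 4 samples of a group came from separate animals, so the p-values measure a spread between samples. That spread was taken within all 6 groups of the series together, over 23 arrays. The series set mouse medulloblastomas made by disrupting Ptch1 with CRISPR/Cas9 beside other mouse models on Affymetrix whole-genome expression arrays. Of those models 2 are used here as tumours driven through Ptch1: 4 tumours of germline Ptch1+/- mice and 5 MERP tumours, where an inducible Cre under Atoh1 removes floxed Ptch1 from granule neuron precursors.

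Medulloblastoma is a malignant tumour of the cerebellum with several molecular subgroups, and MYC family transcription factors drive part of them. MYCN pairs with MAX, binds E-boxes in promoters and raises the transcription of genes for ribosome production, nucleotide synthesis and cell division. In the developing cerebellum Hedgehog signalling maintains Mycn in dividing granule neuron precursors, which otherwise leave the cell cycle and become granule neurons, the most numerous neurons of the adult tissue.

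Values are log2 levels after robust multi-array averaging (RMA), with 1 probe set per gene, so a difference of 1 is a 2-fold change. The call for a gene was an adjusted p under 0.05 in limma, over all 18194 genes. Between GTML and adult cerebellum 10055 genes (55.3%) were called, 4970 higher in GTML (27.3% of the genes tested) and 5085 lower (27.9%). With at least a 2-fold difference there were 2230 higher (12.3%) and 2879 lower (15.8%). Centring the arrays on the median of the gene table instead gave 6895 genes higher and 4073 lower, or 62.9% higher among the called against 49.4% in the main setting, and moved the median difference of all genes to 0.24, against 0.04 in the main setting. Group means at or below 4.48, the mean lower quartile of the arrays, were read as near background, and differences against them are lower limits. The 3′ to 5′ gap of the control genes for RNA integrity was 1.10 to 1.28 in GTML and 0.47 to 0.54 in adult cerebellum. The gap moved with the group, and its part in the results was not tested. The median SD of a gene between samples was 0.246 in GTML and 0.0932 in adult cerebellum. The adult samples carried the defining genes of cerebellar neurons, with Gabra6 at 13.80 to 13.86 and Calb1 at 14.13 to 14.38.

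Mycn, the gene overexpressed in the model, was examined first. Its main probe set read 7.69, 7.15, 8.39 and 8.08 in GTML 1 to 4, against 6.57, 7.13, 6.78 and 7.05 in adult cerebellum 1 to 4. All 4 tumours were above all adult samples, by 0.94 on average (SE 0.20, limma adjusted p = 0.000304), but GTML 2 exceeded the highest adult sample by little. A second Mycn probe set gave 9.17, 8.96, 8.68 and 8.60 in GTML, against 6.90, 6.65, 6.80 and 7.27 in adult cerebellum, a difference of 1.95. The third overlapped between the groups and differed by 0.22. Which of these probe sets match the transgene's transcript is not given in the sources used here. The Ptch1-driven tumours, which express Mycn from its own locus, read 11.91 to 12.39 on the main probe set, and GTML lay 4.32 log2 units below their mean there (limma adjusted p = 1.57e-14). This gap was seen on that probe set alone, since on the second GTML read 8.60 to 9.17 and the Ptch1-driven tumours 8.93 to 9.50, and on the third GTML read 6.77 to 7.30 and those tumours 6.77 to 7.17, so that the groups overlapped on both. Slc1a2, the gene whose promoter gives Glt1 its name, read 12.36, 11.43, 12.05 and 11.69 in GTML 1 to 4, against 13.30, 13.05, 12.96 and 13.002 in adult cerebellum 1 to 4. Its 5 probe sets disagreed in direction, from -1.20 on the main one to 1.52 on another.

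**Figure D1:**
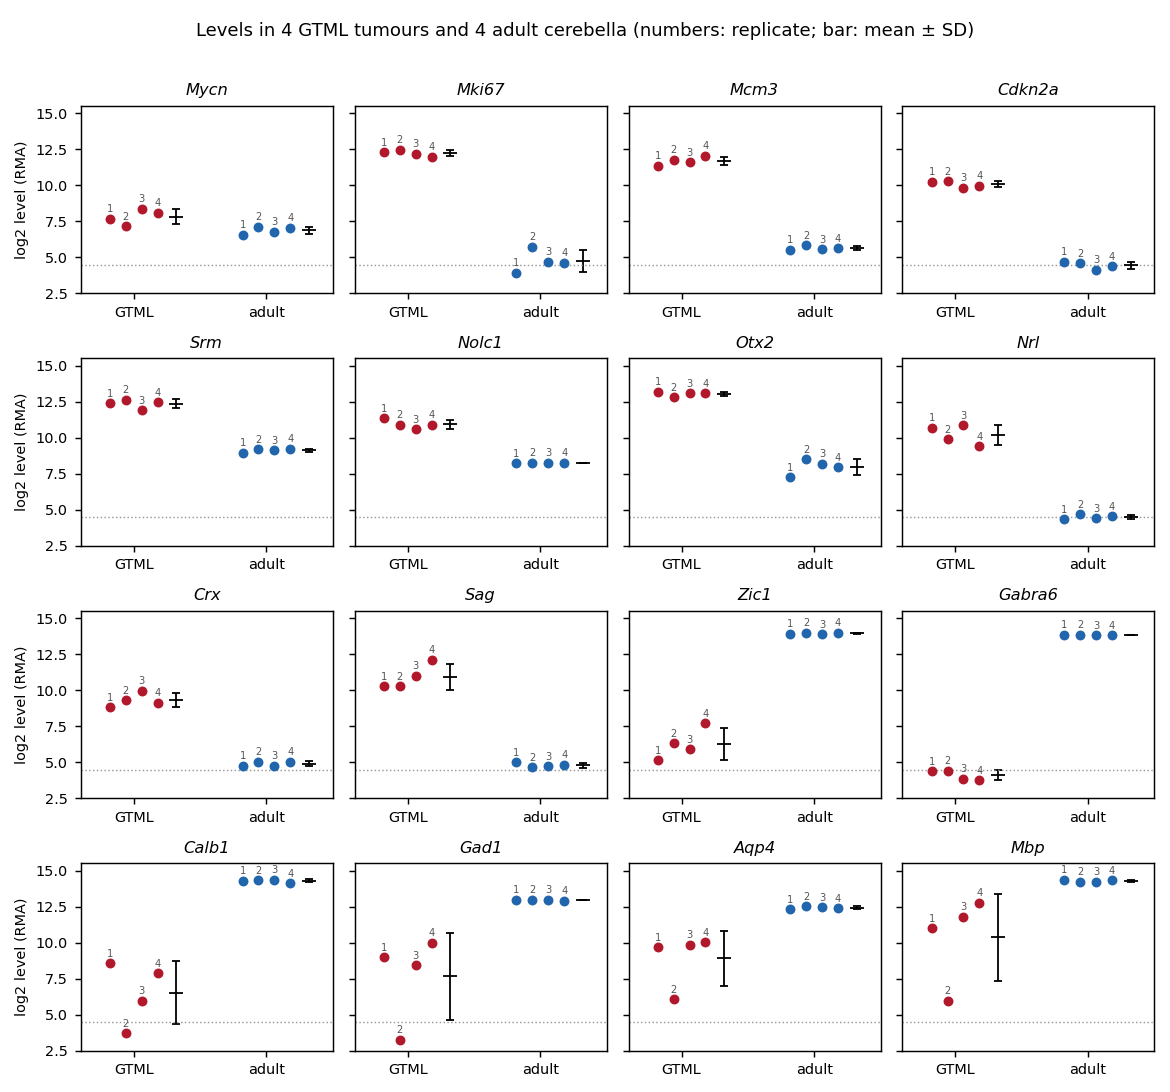
Log2 levels (vertical axis, RMA) of 16 genes in 4 GTML tumours (red, left) and 4 adult cerebella (blue, right), numbered by replicate, with the mean and SD beside the points and a dotted line at the background level of 4.48. Mki67 stood at 11.99 to 12.47 in GTML against 3.95 to 5.75 in adult cerebellum, while Gad1, Aqp4 and Mbp were spread widely among the tumours and lowest in GTML 2.

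Genes of mitosis had the highest median difference of the 33 lists described here. In bulk tissue a change in the number of cells of a type and a change in RNA per cell cannot be told apart, here and in the lists that follow. Of 29 measured genes of mitosis and G2/M, 28 were called higher and 0 lower, with a median difference of 5.38, and 28 had all tumours above all adult samples, against 26.8% of all genes. Mki67, the antigen behind the Ki-67 proliferation stain, read 12.27, 12.47, 12.19 and 11.99 in GTML 1 to 4, against 3.95, 5.75, 4.70 and 4.62 in adult cerebellum 1 to 4. That was 178-fold higher (difference 7.48, SE 0.25, limma adjusted p = 4.11e-16), and the 4 tumours lay within 0.5 of each other. Top2a, the topoisomerase that untangles chromosomes before division, was 142-fold higher at 12.38, 12.75, 12.54 and 12.30 in GTML 1 to 4, against 4.73, 6.12, 5.57 and 4.97 in adult cerebellum. Ube2c, which lets the anaphase-promoting complex mark proteins for destruction, rose by 6.82 and Cdk1, the kinase that starts mitosis, by 5.91. Kif2c and Birc5, a kinesin and the survivin subunit of the chromosomal passenger complex, were near background in adult cerebellum, so that their differences of 6.86 and 6.62 are lower limits. Foxm1, a transcription factor of G2 genes, rose least among the called members, by 0.82. Anln, a scaffold of the contractile ring, was the member not called (9.96 ± 0.29 in GTML, 9.87 ± 0.11 in adult cerebellum, SD, n = 4 each). Its other probe set was lower in GTML by 0.79. GTML 2 held the highest value of 26 of the 29 genes. Against the Ptch1-driven tumours, 3 of these genes were called higher and 5 lower, with a median of -0.06, where 23% of all genes were higher and 20.2% lower.

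The promoter of Mki67 is shown because it had the largest difference among the members that hold the letters TTTGAA, which it has in 2 places. These letters are the core of the cell cycle homology region, an element known from promoters active in G2 and mitosis. It spans 250 bases before to 50 after the transcript's start at chr7:135716330-135716629 on the minus strand (RefSeq, GRCm38.p6), with each TTTGAA, read on both strands, in capitals.
Mki67: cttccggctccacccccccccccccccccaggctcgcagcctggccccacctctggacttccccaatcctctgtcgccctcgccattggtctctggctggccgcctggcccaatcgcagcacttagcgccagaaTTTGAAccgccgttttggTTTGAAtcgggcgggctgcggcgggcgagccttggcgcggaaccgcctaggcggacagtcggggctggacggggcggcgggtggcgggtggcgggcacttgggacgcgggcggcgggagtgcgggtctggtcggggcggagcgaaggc
TTTGAA was found in 18 of the 24 mitosis and G2/M members with a promoter window (75.0%), against 18.1% of 27025 genes, and CCAAT in 17 of them (70.8%), against 37.9%. Of the 18 members with TTTGAA, 17 were called higher and the other was Anln. A match of letters describes the window only.

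All 29 measured genes of DNA replication and nucleotide synthesis were called higher, with a median difference of 3.22 and a range of 1.39 to 6.25, beside 27.3% called higher among all genes. Rrm2, a subunit of the reductase that makes deoxynucleotides, rose the most, to 12.36, 12.84, 12.80 and 12.46 in GTML 1 to 4, against 6.05, 6.88, 6.08 and 6.46 in adult cerebellum. Mcm3, part of the helicase that opens replication origins, read 11.34, 11.77, 11.59 and 12.04 in GTML 1 to 4, against 5.54, 5.85, 5.56 and 5.65 in adult cerebellum 1 to 4. The groups were apart by 6.04 (SE 0.14, limma adjusted p = 2.39e-18). Cdc6 and Cdt1, which load that helicase, rose by 5.59 and 4.65, the first as a lower limit. The smallest rises were those of Fen1, which trims Okazaki fragments (1.39), Orc1 of the origin recognition complex (1.43) and its partner Orc6 (1.90). Pcna, the sliding clamp, stood high in both groups, at 13.10 ± 0.22 in GTML and 11.12 ± 0.09 in adult cerebellum. The list split against the Ptch1-driven tumours into 7 members called higher and 4 lower (median 0.17), beside 23% and 20.2% of all genes.

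E2F factors switch on replication genes through short sites close to the start of transcription. The window of Mcm3 is shown since it had the largest difference among the members with such letters. It lies at chr1:20820263-20820562 on the minus strand, and capitals mark TTCCCGC or TTGGCGC on either strand, read as 1 run where they overlap.
Mcm3: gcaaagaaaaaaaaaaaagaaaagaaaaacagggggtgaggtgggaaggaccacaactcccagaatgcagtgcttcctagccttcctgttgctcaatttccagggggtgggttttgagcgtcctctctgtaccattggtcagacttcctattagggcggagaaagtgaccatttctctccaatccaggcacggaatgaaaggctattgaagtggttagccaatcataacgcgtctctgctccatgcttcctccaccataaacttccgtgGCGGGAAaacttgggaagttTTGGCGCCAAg
Either motif stood in 13 of 25 members with a window (52.0%), against 6.93% of all genes, and all 13 were called higher in GTML.

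Genes of cell cycle entry moved less evenly. Of 27 measured, 18 were higher, 3 lower and 6 not called (median 0.86), beside 27.3% higher and 27.9% lower among all genes. Cdkn2a, whose locus encodes the CDK inhibitor p16 and the p53 activator ARF, read 10.23, 10.27, 9.82 and 9.97 in GTML 1 to 4, against 4.69, 4.60, 4.15 and 4.39 in adult cerebellum 1 to 4. The difference of 5.62 (SE 0.69, limma adjusted p = 3.79e-07) is a lower limit. Ccnd2, the cyclin D of neuronal precursors, rose by 5.18 and E2f2 by 4.14, whereas Ccnd1 rose by 1.39. The CDK inhibitors Cdkn1a and Cdkn2d fell by 1.59 and 0.98 log2 units, and the third one lower was Cdkn1b at -1.24, not called on its probe set with the highest SD (-0.54). Cdk6, a partner of cyclin D, was called higher by 1.12, but its groups overlapped, at 5.98, 6.19, 5.37 and 8.58 in GTML against 5.61, 5.62, 5.64 and 4.76 in adult cerebellum. It was not called without GTML 4 (0.44) or without adult cerebellum 4 (0.91). It was 12.27 to 12.49 in Ptch1+/- and 11.99 to 12.51 in MERP tumours, so that GTML lay 5.78 log2 units below their mean (limma adjusted p = 5.58e-11).

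In the MYC, MAX and MXD network 6 of 12 genes were called higher and 3 lower, beside 27.3% and 27.9% of all genes. Mycl, the third MYC family gene, read 7.85, 7.79, 7.23 and 8.29 in GTML 1 to 4, against 6.25, 6.53, 6.27 and 6.44 in adult cerebellum 1 to 4, and rose by 1.42 (limma adjusted p = 1.33e-07). Myc itself was not called (6.26 ± 0.48 in GTML, 5.83 ± 0.48 in adult cerebellum). Mxd3, an antagonist found in dividing precursors, rose by 2.52, while Mxd1 and Mxd4, antagonists of differentiated cells, fell by 0.72 and 0.87. Mnt and Mxi1, also of this network, were called higher, Mxi1 by 0.51, and Mlx was called lower by 0.32. The groups overlapped for Mxi1 and Mlx. Mga, an antagonist in the same network, was higher by 1.53 on its main probe set and lower on the probe set with the highest SD (-0.95). Max, the shared partner, was 9.02 ± 0.36 in GTML and 8.91 ± 0.06 in adult cerebellum.

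Genes of ribosome production rose together. All 28 measured members were called higher (median 1.95, range 0.69 to 2.86), and 27 had all tumours above all adult samples. Among all genes 27.3% were called higher and 26.8% had the tumours above. Nolc1, a chaperone of small nucleolar ribonucleoproteins, read 11.35, 10.89, 10.58 and 10.89 in GTML 1 to 4, against 8.25, 8.27, 8.26 and 8.27 in adult cerebellum 1 to 4, a difference of 2.67 (SE 0.17, limma adjusted p = 2.21e-11). Ddx21, an RNA helicase of the nucleolus, rose most, by 2.86, followed by Nop58, a core protein of box C/D particles, by 2.79. The smallest rises were those of Ubtf (0.69), which opens ribosomal DNA to polymerase I, and Pno1 (0.75), of the small subunit's assembly. Neither call held in every setting: Ubtf differed by 0.32 on its probe set with the highest SD, and Pno1 by 0.30 with GTML 1 and 3 as the only tumours. In the comparison with the Ptch1-driven tumours 24 members were called higher and 0 lower (23% and 20.2% of all genes), with a median of 0.70.

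The window of Mybbp1a, which encodes a nucleolar MYB-binding protein, is shown as the member with the largest difference (2.19) whose promoter holds the E-box CACGTG, in capitals. It lies at chr11:72441077-72441376 on the plus strand.
Mybbp1a: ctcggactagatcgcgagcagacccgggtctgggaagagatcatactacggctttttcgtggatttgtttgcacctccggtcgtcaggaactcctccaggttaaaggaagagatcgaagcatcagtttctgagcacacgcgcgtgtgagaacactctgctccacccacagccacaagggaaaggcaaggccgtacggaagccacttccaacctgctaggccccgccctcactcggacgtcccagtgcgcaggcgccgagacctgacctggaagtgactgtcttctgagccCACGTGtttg
CACGTG, which reads the same on both strands, was found in 6 of 23 members with a window (26.1%), against 7.24% of all genes. The other 5 were Pes1, Tsr1, Utp20, Nop2 and Pno1, with differences of 2.08, 2.01, 1.98, 1.80 and 0.75.

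Enzymes that supply one-carbon units, purines and polyamines also rose, with 16 of 17 called higher (median 1.74), beside 27.3% of all genes. Cad, which starts pyrimidine synthesis, rose by 3.67, and Mthfd2, the mitochondrial folate enzyme, by 3.63. Srm, spermidine synthase, read 12.38, 12.64, 11.91 and 12.46 in GTML 1 to 4, against 8.95, 9.20, 9.13 and 9.23 in adult cerebellum 1 to 4, or 9.32-fold higher (limma adjusted p = 6.95e-13), and it also exceeded the Ptch1-driven tumours by 2.20 (limma adjusted p = 7.08e-11). Odc1, the first enzyme of polyamine synthesis, rose by 2.53. Psph, the last enzyme of serine synthesis, was the member not called. Its tumours ran 8.57 to 9.73 and its adult samples 9.18 to 9.31. Of this list 10 members were called above the Ptch1-driven tumours and 0 below, beside 23% and 20.2% of all genes. CACGTG stood in 3 of 15 windows, against 7.24% of all genes.

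**Figure D2:**
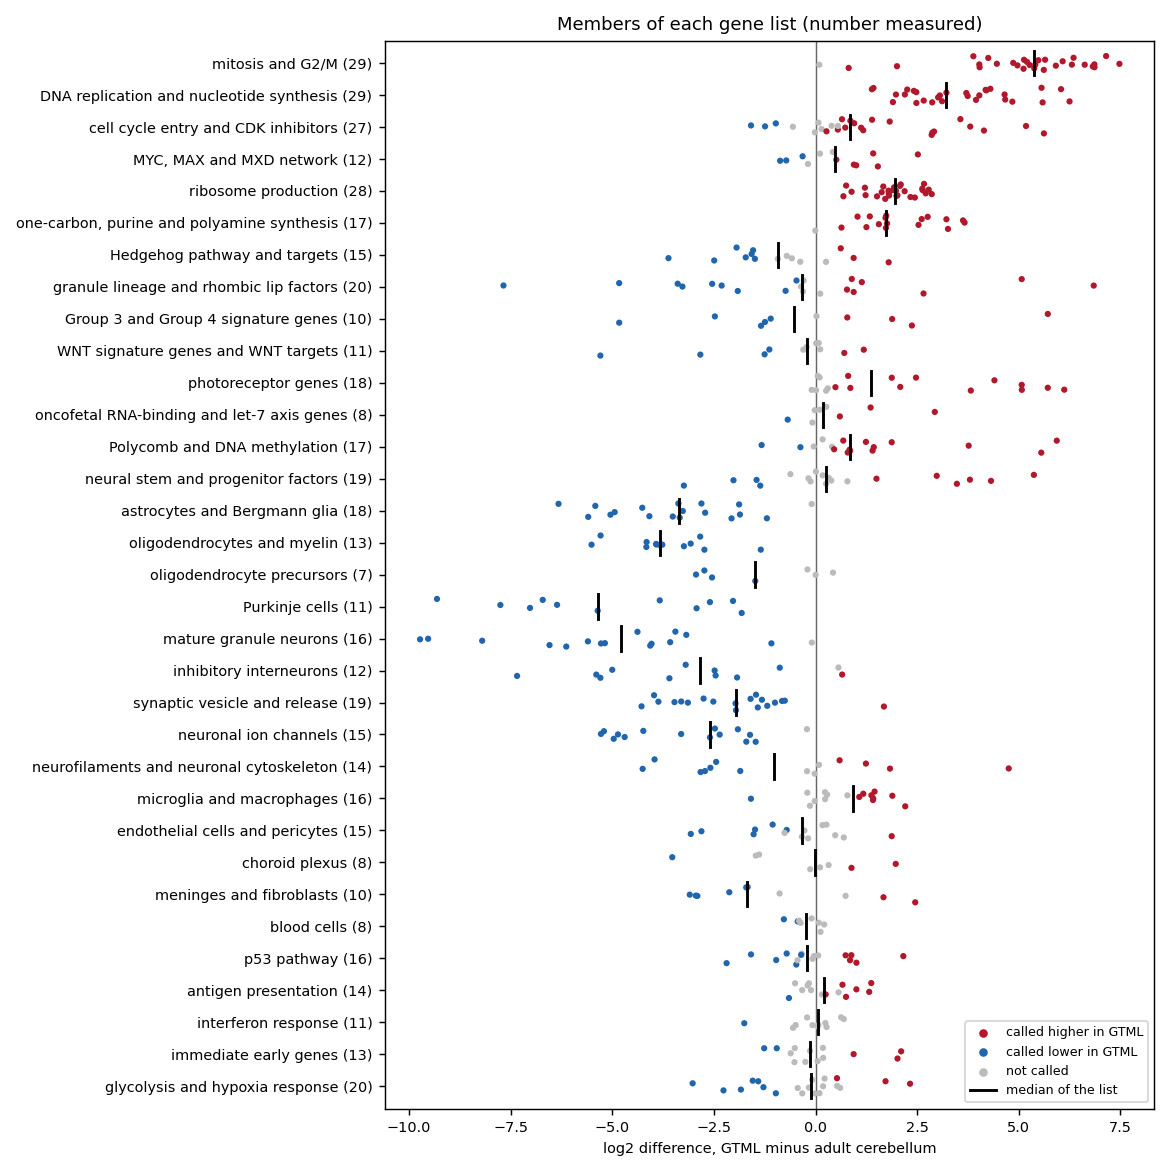
Log2 difference, GTML minus adult cerebellum (horizontal axis), of every measured member of 33 gene lists (rows, with the number measured), red where called higher in GTML, blue where called lower and grey where not called, with a black line at each list's median. Mitosis, replication and ribosome genes lie on the right, and the lists of mature neurons and glia lie on the left, down to Gabra6 at -9.73.

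A set of photoreceptor genes was raised in GTML. Otx2 and Crx, homeodomain factors of the retina and pineal gland, and Nrl, which specifies rods, lead this programme in those tissues. Of 18 measured genes 12 were called higher than in adult cerebellum and 0 lower (median 1.37), beside 27.3% of all genes called higher. With dim genes left out of the fit 7 were called higher. Nrl read 10.70, 9.90, 10.86 and 9.40 in GTML 1 to 4, against 4.34, 4.68, 4.42 and 4.57 in adult cerebellum 1 to 4. That was 52.5-fold (difference 5.71, SE 0.24, limma adjusted p = 2.56e-14). Crx read 8.80, 9.29, 9.95 and 9.14 in GTML 1 to 4, against 4.74, 5.03, 4.76 and 5.04 in adult cerebellum 1 to 4, and its other probe set, at 10.69 to 11.73 in GTML against 3.18 to 3.26 in adult cerebellum, differed by 7.84. Otx2 was higher in GTML, at 13.19, 12.83, 13.09 and 13.08, and also present in adult cerebellum, at 7.25, 8.49, 8.19 and 7.96. Of the genes these factors act on, Sag, the arrestin that quenches rhodopsin, read 10.26, 10.28, 10.99 and 12.12 in GTML 1 to 4, against 5.01, 4.64, 4.72 and 4.81 in adult cerebellum 1 to 4. It was highest in GTML 4 and 69.5-fold above adult cerebellum (limma adjusted p = 1.85e-14). Gnb3, a transducin subunit of cones, rose by 5.08, Aipl1, a chaperone of the rod phosphodiesterase, by 3.82, and Pde6g and Pde6b, subunits of that phosphodiesterase, by 2.47 and 2.08. Other members were not raised. Rcvrn, the calcium sensor recoverin, was 3.54 to 3.92 in GTML and 3.54 to 3.85 in adult cerebellum, and Pde6a was 3.31 to 3.68 in GTML and 3.29 to 3.50 in adult cerebellum, with both groups near background. Gnat1, the rod transducin, was 4.58 ± 0.36 in GTML and 4.32 ± 0.16 in adult cerebellum and was called only without GTML 4 (0.37) or with the gene table centred (0.46). GTML 3 held the highest value of 10 of the 18 genes.

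OTX and CRX proteins bind the core TAATCC, a motif chosen for this search after the values had been seen. The windows of Sag and Crx are shown because these had the largest differences among the 5 members that hold it. Sag lies at chr1:87803430-87803729 on the plus strand and Crx at chr7:15879906-15880205 on the minus strand, and capitals mark the core on either strand.
Sag: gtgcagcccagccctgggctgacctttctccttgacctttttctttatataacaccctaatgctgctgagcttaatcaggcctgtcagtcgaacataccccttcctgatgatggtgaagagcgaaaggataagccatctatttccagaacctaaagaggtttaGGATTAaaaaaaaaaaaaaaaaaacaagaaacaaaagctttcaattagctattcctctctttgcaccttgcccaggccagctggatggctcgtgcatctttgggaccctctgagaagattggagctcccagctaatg
Crx: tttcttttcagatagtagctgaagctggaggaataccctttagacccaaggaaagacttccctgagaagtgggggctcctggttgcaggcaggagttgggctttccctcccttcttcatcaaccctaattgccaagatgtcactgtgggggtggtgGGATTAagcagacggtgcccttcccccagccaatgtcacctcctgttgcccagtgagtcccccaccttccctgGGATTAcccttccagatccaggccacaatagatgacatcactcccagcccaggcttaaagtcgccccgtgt
TAATCC was found in 5 of 12 members with a window (41.7%), against 7.16% of all genes. The others were Aipl1, Gngt1 and Cngb1, which rose by 3.82, 0.80 and 0.49.

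The genes of this paragraph were in no list and were named for the size of their difference from adult cerebellum or from the Ptch1-driven tumours. Mpp4, a scaffold of photoreceptor synapses, read 11.37, 8.93, 12.34 and 11.62 in GTML 1 to 4, against 7.17, 6.80, 6.95 and 6.64 in adult cerebellum 1 to 4, and exceeded the Ptch1-driven tumours, near background, by at least 7.21 (limma adjusted p = 1e-12). Cdhr1, the photoreceptor cadherin, was 91-fold above adult cerebellum and 5.85 log2 units above those tumours. Rp1l1 and Mak, both of the photoreceptor axoneme or cilium, were higher than adult cerebellum by 5.82 and 5.86, the first as a lower limit. Cplx3, a complexin of ribbon synapses, rose to 10.53, 10.68, 11.56 and 10.75 in GTML 1 to 4, against 5.28, 5.19, 5.34 and 5.30 in adult cerebellum. Otx2os1, an antisense RNA beside Otx2, rose by at least 6.33, and Neurod4 by at least 6.34.

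Factors of the granule lineage and rhombic lip went in both directions, with 7 of 20 called higher and 9 lower (median -0.33), beside 27.3% and 27.9% of all genes. Zic1, a zinc finger factor of granule neurons and their precursors, read 5.13, 6.34, 5.90 and 7.71 in GTML 1 to 4, against 13.92, 13.98, 13.90 and 13.97 in adult cerebellum 1 to 4. It fell by 7.68 (SE 0.30, limma adjusted p = 7.62e-15), and Ptch1+/- and MERP tumours held it at 13.88 to 14.20 and 13.56 to 13.66. Zic4 and Zic2 fell by 3.39 and 1.91. Meis2, a homeodomain factor, rose by 2.66 and was 4.30 above the Ptch1-driven tumours. Eomes, a marker of unipolar brush cells, fell by at least 4.83. Atoh1, which defines granule neuron precursors, read 5.57, 5.31, 5.38 and 5.39 in GTML 1 to 4, against 4.29, 4.59, 4.33 and 4.67 in adult cerebellum 1 to 4, a small rise against tissue near background (limma adjusted p = 0.00499). It was 5.38 log2 units below the Ptch1-driven tumours (limma adjusted p = 8.24e-14). Barhl1, which acts after Atoh1, was 5.24 below them. Insm1, a factor of dividing neuronal precursors, rose by 6.84 and reached 11.69 ± 0.10 in GTML. Neurod1 was high in both groups, 13.53 ± 0.16 in GTML and 13.82 ± 0.03 in adult cerebellum. Pax6, a factor of granule neurons, was lower by 0.47, a call lost without GTML 1 (-0.31). Against the Ptch1-driven tumours 2 members were higher and 13 lower (median -1.81), beside 23% and 20.2% of all genes.

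Hedgehog pathway genes were mostly at or below adult cerebellum. Of 15 measured, 3 were called higher and 7 lower (median -0.93), beside 27.3% and 27.9% of all genes. Shh, the ligand made by Purkinje cells, read 5.07, 4.86, 4.94 and 5.96 in GTML 1 to 4, against 8.90, 8.87, 8.79 and 8.75 in adult cerebellum. Ptch1, receptor and target at once, fell by 1.49 on its main probe set, with the probe set of highest SD at 0.92 and the mean of its probe sets at -0.19, not called. The co-receptors Boc and Gas1 fell by 2.49 and 1.94. Smo, the signal transducer, was not called (7.99 ± 0.77 in GTML, 8.36 ± 0.08 in adult cerebellum), but was without GTML 1 (-0.62). Gli1, the target used as a readout of the pathway, read 4.22, 4.60, 4.52 and 4.65 in GTML 1 to 4, against 6.22, 5.96, 6.09 and 6.01 in adult cerebellum 1 to 4. It was lower by 1.57 (SE 0.22, limma adjusted p = 3.05e-06) and 5.85 below the Ptch1-driven tumours (limma adjusted p = 1.09e-15). Gli2 rose by 1.80 and Sufu, which restrains the Gli factors, by 0.94. Sfrp1 and Hhip, targets high in Hedgehog-driven tumours, were 5.75 ± 0.82 and 5.73 ± 1.21 in GTML, against 6.45 ± 0.18 and 6.66 ± 0.24 in adult cerebellum. Neither was called, though without GTML 2 both were lower, at -1.10 for Sfrp1 and -1.38 for Hhip. The probe sets of Sfrp1 disagreed in direction, from -0.82 to 0.80 with all tumours. Sfrp1 lay 7.18 below the Ptch1-driven tumours (limma adjusted p = 9.79e-14). Against those tumours 11 members were lower and 1, Cdon, higher (median -2.21), beside 20.2% and 23% of all genes.

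**Figure D3:**
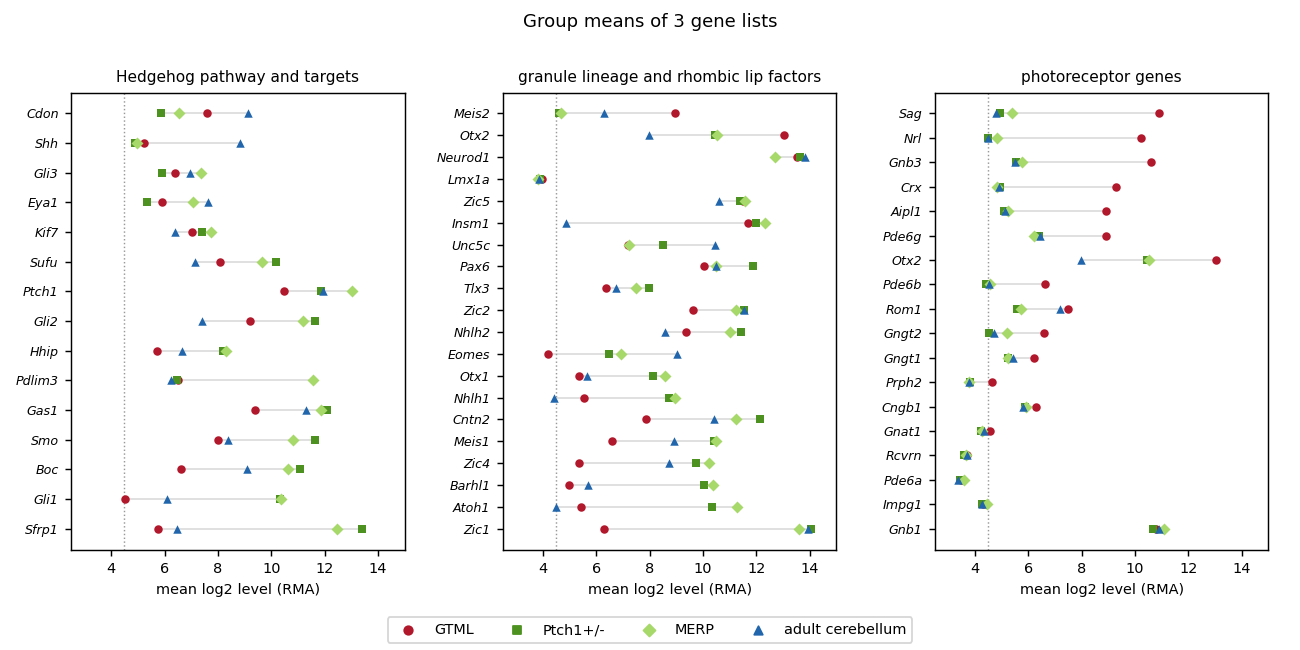
Mean log2 level (horizontal axis, RMA) of each member of 3 gene lists (rows) in GTML (red circles), Ptch1+/- (dark green squares) and MERP tumours (light green diamonds) and adult cerebellum (blue triangles), ordered by the difference of GTML from the Ptch1-driven tumours, with a dotted line at 4.48. Zic1, Gli1 and Sfrp1 lie far left of the Ptch1-driven tumours in GTML, and Sag, Nrl and Crx far right.

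Signature genes that separate human medulloblastoma subgroups gave no single direction. Among all genes 27.3% were called higher and 27.9% lower. Of 10 Group 3 and Group 4 genes 4 were higher and 5 lower. Besides Nrl, Npr3, the natriuretic peptide clearance receptor and a Group 3 marker, read 6.90, 6.56, 4.64 and 6.41 in GTML 1 to 4, against 4.29, 4.29, 4.43 and 3.96 in adult cerebellum 1 to 4, and Gabra5, a GABA receptor subunit, rose by at least 2.37. Kcna1, the potassium channel used as a Group 4 marker, fell by 2.47 against adult cerebellum and stood 2.14 above the Ptch1-driven tumours. Khdrbs2 fell by 1.24. Of 11 WNT genes 2 were higher and 4 lower. Lef1, a nuclear partner of beta-catenin, rose by 1.19 and Wif1, a secreted inhibitor, fell by at least 2.83, while Axin2, the feedback target, was 7.46 ± 0.17 in GTML and 7.76 ± 0.06 in adult cerebellum and was not called. Dkk1, Dkk2 and Dkk4 were near background in both groups.

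Genes of immature cells were mixed. Among 19 neural stem and progenitor factors 6 were higher, led by Sox11 (5.37), Dcx (4.32), Dll3 (3.80) and Sox4 (3.48), factors and markers of newborn neurons, and 4 lower. Both shares were near or below those of all genes (27.3% higher and 27.9% lower). The lower ones were Sox2 and Sox9, of stem cells and glia, the Notch target Hes1 and the radial glia gene Fabp7, whose difference was -1.36 with all tumours and -0.77 without GTML 2. Sox2 read 7.37, 3.16, 7.07 and 7.76 in GTML 1 to 4, against 9.61, 9.72, 9.47 and 9.52 in adult cerebellum 1 to 4, and GTML 2 stood far below the others. Of 17 Polycomb and DNA methylation genes 12 were higher and 2 lower. Uhrf1, which brings Dnmt1 to replicated DNA, rose by 5.93, the helicase Hells by 5.55 and Ezh2, the methyltransferase of Polycomb complex 2, by 3.77, while its relative Ezh1 fell by 1.33. Of 8 oncofetal and let-7 axis genes 3 were higher and 1 lower. Msi1, an RNA-binding protein of neural stem cells, rose by 2.93 and Dis3l2 by 1.36. Msi2 was lower by 0.68, but by 0.09 and not called over the mean of its probe sets. Lin28b, which blocks let-7 processing, was called higher with both groups near background (3.78 ± 0.47 in GTML, 3.18 ± 0.06 in adult cerebellum), and not without GTML 3.

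Markers of mature granule neurons and Purkinje cells had the lowest medians of the 33 lists. Of 16 granule neuron genes 15 were called lower and none higher, with a median of -4.78 (27.9% of all genes were called lower). Gabra6, the GABA receptor subunit of granule neurons, read 4.39, 4.42, 3.86 and 3.75 in GTML 1 to 4, against 13.85, 13.86, 13.82 and 13.80 in adult cerebellum 1 to 4. It fell to background, at least 848-fold lower (limma adjusted p = 5.65e-12). Cbln3, which granule neurons secrete, was at least 738-fold lower, and Chn2 fell by 8.20 log2 units. Neurod2 was the member not called, at 9.83 ± 0.24 in GTML and 9.92 ± 0.10 in adult cerebellum, and Slc17a7, a vesicular glutamate transporter, fell by 1.08. All 11 Purkinje cell genes were lower (median -5.36). Car8, a partner of the IP3 receptor, was 635-fold lower. Calb1, the calcium buffer calbindin, read 8.59, 3.73, 5.96 and 7.86 in GTML 1 to 4, against 14.31, 14.32, 14.38 and 14.13 in adult cerebellum 1 to 4. The tumours differed widely from each other, with GTML 1 at the top and GTML 2 at background. Pcp2 read 8.66, 7.06, 5.51 and 7.06 in GTML 1 to 4, against 14.15, 14.004, 14.15 and 14.07 in adult cerebellum.

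Of 12 inhibitory interneuron genes 10 were lower and 1, Sst (0.66), higher, beside 27.9% and 27.3% of all genes. The call for Sst, somatostatin, was lost without any 1 of GTML 1, 3 and 4 and adult cerebellum 1 and 3, and its groups overlapped. Gad1, which makes GABA, read 9.003, 3.25, 8.43 and 9.99 in GTML 1 to 4, against 12.98, 12.96, 12.97 and 12.92 in adult cerebellum 1 to 4. It fell by 5.29 (SE 0.87, limma adjusted p = 1.94e-05), and GTML 2 stood far below the other tumours. Pvalb, parvalbumin, fell by 7.34 and Slc32a1, the vesicular GABA transporter, by 5.39. Of 19 genes of synaptic vesicles and release 18 were lower (median -1.96). Sh3gl2, an endophilin, and Rims1, of the active zone, fell by 4.28 and 3.97. Stx1a, a syntaxin of the fusion machinery, was the one that rose, by 1.68. Among 15 ion channel genes 14 were lower (median -2.60), and Kcnd2, Scn1a and Scn4b fell by 5.28, 5.20 and 4.96.

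The neuronal cytoskeleton list split, with 4 of 14 genes higher and 7 lower, beside 27.3% and 27.9% of all genes. Dpysl3, of growing axons, and Tubb3, the early neuronal tubulin, rose by 4.75 and 1.83, whereas Mapt, the axonal tau, and Gap43 fell by 4.25 and 3.96. Nefh, the heavy neurofilament, was not called against adult cerebellum, at 10.33, 12.01, 9.97 and 11.68 in GTML 1 to 4, against 11.22, 11.13, 11.19 and 11.28 in adult cerebellum 1 to 4. It stood 6.05 above the Ptch1-driven tumours (limma adjusted p = 4.99e-11).

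Glial genes were low and uneven between tumours. Of 18 astrocyte and Bergmann glia genes 17 were called lower and none higher (median -3.36), beside 27.9% and 27.3% of all genes. Gdf10, of Bergmann glia, fell by 6.32, Gjb6, an astrocyte connexin, by 5.59 and S100b by 5.42. Aqp4, the astrocyte water channel, read 9.68, 6.09, 9.87 and 10.04 in GTML 1 to 4, against 12.33, 12.54, 12.45 and 12.38 in adult cerebellum 1 to 4, a fall of 3.51 (SE 0.70, limma adjusted p = 0.000178). Gfap, the intermediate filament of reactive astrocytes, was the gene not called. It read 9.75, 5.61, 9.62 and 9.16 in GTML 1 to 4, against 8.43, 8.59, 8.72 and 8.77 in adult cerebellum 1 to 4, with GTML 1, 3 and 4 above every adult sample and GTML 2 below. GTML 2 was the lowest tumour for 17 of the 18 genes. All 13 oligodendrocyte and myelin genes were lower (median -3.84). Mbp, myelin basic protein, read 10.99, 5.98, 11.78 and 12.75 in GTML 1 to 4, against 14.37, 14.23, 14.23 and 14.34 in adult cerebellum 1 to 4, and fell by 3.92 (SE 1.01, limma adjusted p = 0.00217), or by 2.45 without GTML 2. Ermn and Mobp, of mature myelin, fell by 5.51 and 5.29. GTML 4 was the highest tumour for 11 of the 13 genes and GTML 2 the lowest for 10. Of 7 oligodendrocyte precursor genes 4 were lower, Olig1, Gpr17, Pdgfra and Olig2, and 0 higher. Pdgfra, the growth factor receptor of these cells, fell by 2.55 on its main probe set and differed by 0.08 on the one with the highest SD. All 7 were lower than in the Ptch1-driven tumours, beside 20.2% of all genes.

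**Figure D4:**
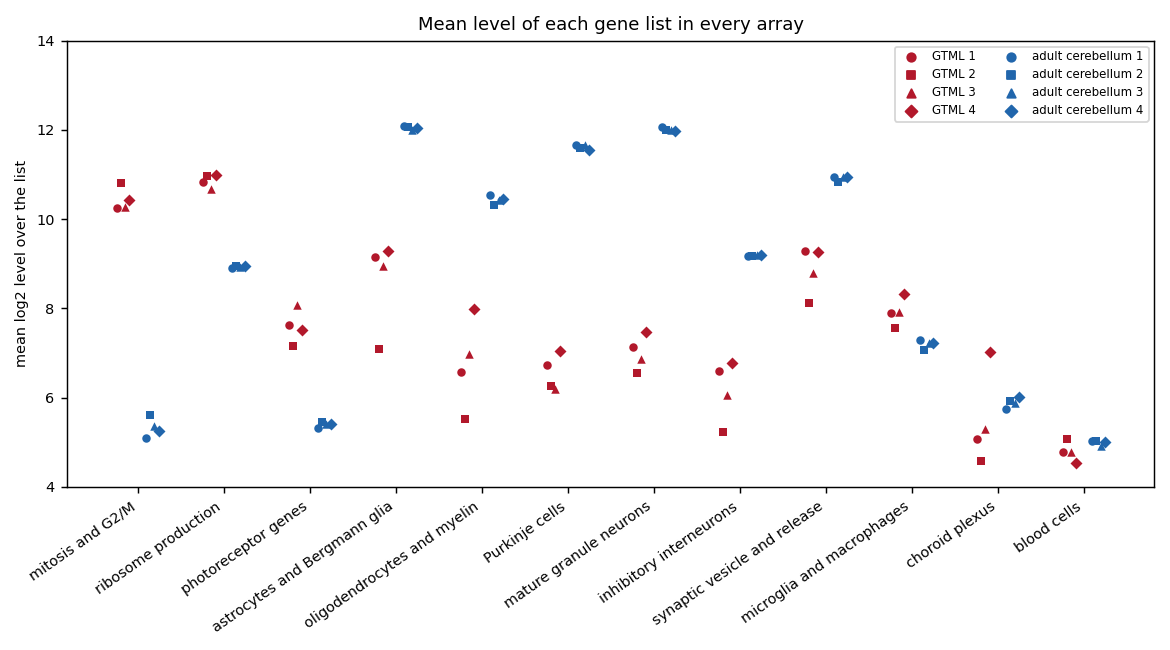
Mean log2 level (vertical axis, RMA) over the members of 12 gene lists (horizontal axis) in each GTML tumour (red) and each adult cerebellum (blue), with a marker shape for each replicate. The adult samples lie close together, while GTML 2 (square) falls to 7.10 for astrocyte genes against 9.29 in GTML 4 (diamond), which is also highest for choroid plexus genes.

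Microglia and macrophage genes rose in part, with 8 of 16 higher and 1 lower (median 0.93), beside 27.3% and 27.9% of all genes. Ptprc, the leukocyte antigen CD45, read 6.76, 7.19, 7.86 and 7.61 in GTML 1 to 4, against 5.36, 5.01, 5.03 and 5.17 in adult cerebellum 1 to 4, a rise of 2.21 (SE 0.32, limma adjusted p = 3.95e-06). Cd68, of macrophage lysosomes, rose by 1.89 and Aif1 by 1.45. P2ry12, a receptor of resting microglia, fell by 1.59. Csf1r, the growth factor receptor of these cells, was 10.37 ± 0.51 in GTML and 10.58 ± 0.10 in adult cerebellum and was not called. Of 14 antigen presentation genes 6 were higher and 1 lower. The higher ones included the immunoproteasome subunit Psmb8 (0.75) and the class II chaperone Cd74 (1.01). With GTML 1 and 2 as the only tumours, 2 of the antigen presentation genes were called higher, and without any 1 array 4 to 5 were. The interferon response list held 0 higher and 1 lower, Stat2 (-1.75), of 11, and GTML 4 was the highest tumour for all 11.

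Vascular, meningeal and choroid genes moved in both directions. Of 15 endothelial and pericyte genes 6 were lower and 1 higher, beside 27.9% and 27.3% of all genes. Slco1a4 and Abcb1a, transporters of the blood-brain barrier, fell by 3.07 and 2.81, and Kdr, the VEGF receptor, rose to 9.17, 8.41, 10.46 and 8.60 in GTML 1 to 4, against 7.25, 7.31, 7.38 and 7.21 in adult cerebellum. Of 10 meningeal genes 6 were lower, with Ogn and Igf2 down by 3.09 and 2.94, and 2 higher, the collagens Col3a1 (2.45) and Col1a1 (1.67). Of 8 choroid plexus genes 2 were higher and 1 lower, Clic6 (-3.52). Ttr, transthyretin, the most abundant product of the choroid plexus, read 5.78, 4.61, 6.12 and 13.53 in GTML 1 to 4, against 8.37, 9.60, 8.69 and 9.27 in adult cerebellum 1 to 4. GTML 4 stood alone and the gene was not called. Of 8 blood cell genes 2 were called lower, Alas2 (-0.78) and Cd8a (-0.44), and 0 higher. Neither call held without GTML 4, at -0.60 for Alas2 and -0.35 for Cd8a, and that for Alas2 was also lost without adult cerebellum 1 (-0.53). Hba-a1, a haemoglobin gene, was near background in both groups.

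Of 16 genes of the p53 pathway 5 were higher and 6 lower (median -0.21), beside 27.3% and 27.9% of all genes. Eda2r, a death receptor, rose by at least 2.16, highest in GTML 1 (7.96, 6.15, 4.79 and 5.94 in GTML 1 to 4), and Bbc3, the apoptosis factor PUMA, by 1.01. Perp and Cdkn1a fell by 2.19 and 1.59, and Mdm2 was 9.76 ± 0.13 in GTML and 9.69 ± 0.03 in adult cerebellum. Among 13 immediate early genes 3 were higher, with Junb up by 2.11 and Egr2 by at least 2.02, and 2 lower, Egr1 (-1.26) and Arc (-0.95). Of them 9 were lower than in the Ptch1-driven tumours, Fos by 4.48, beside 20.2% of all genes lower there.

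In glycolysis and the hypoxia response 3 of 20 genes were higher and 7 lower than in adult cerebellum, beside 27.3% and 27.9% of all genes. Ldha, which reduces pyruvate to lactate, read 13.21, 13.04, 13.39 and 13.44 in GTML 1 to 4, against 10.93, 11.001, 10.97 and 10.87 in adult cerebellum 1 to 4, 5.01-fold higher (limma adjusted p = 1.32e-10), and its partner subunit Ldhb fell by 2.26. Hk2, the hexokinase of dividing cells, rose by 1.72 and Pkm by 0.53, whereas Hk1 fell by 1.41 and Pfkp by 1.83. Car9, a hypoxia target, fell by 3.02. Against the Ptch1-driven tumours 11 were higher and 1, Hk2, lower, beside 23% and 20.2% of all genes. Ldha was up by 2.12 and Ndrg1 by 3.52.

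The 4 GTML tumours were less alike than the 4 adult samples. The SD between samples was over 1 for 390 genes in GTML and for 3 in adult cerebellum. GTML 2 had 768 genes more than 1 log2 unit below the mean of the other tumours. GTML 4 had 720 genes that far above the mean of the tumours other than itself. The median of the gene table was 7.12, 6.99, 7.12 and 7.36 in GTML 1 to 4. The mean of the bacterial control probe sets was 12.22, 11.84, 11.89 and 10.75 in GTML 1 to 4. The part of these array differences in the counts was not tested. Car3, a carbonic anhydrase, read 13.65, 6.04, 5.82 and 5.62 in GTML 1 to 4, against 4.63, 4.51, 4.43 and 4.63 in adult cerebellum, and Nts, the neuropeptide neurotensin, read 6.14, 5.58, 5.92 and 11.21 in GTML, against 4.94, 5.33, 4.94 and 5.27 in adult cerebellum. Car3 was called higher by 3.23, but by 1.27 and not without GTML 1, and the call was also lost without any 1 of the adult samples. Nts was higher by 2.09, or by 0.76 without GTML 4. Meioc, a germ cell gene, was high in GTML 3 and 4, at 3.13, 4.55, 9.90 and 7.74 in GTML 1 to 4, against 2.81, 2.90, 2.79 and 2.82 in adult cerebellum, and it was called higher (limma adjusted p = 0.00112), by at least 3.50 with all tumours and 2.31 without GTML 3. Xist, the RNA of the inactive X chromosome, read 7.16, 7.49, 14.03 and 13.67 in GTML 1 to 4, against 5.64, 7.90, 7.36 and 5.99 in adult cerebellum 1 to 4. The Y-linked Eif2s3y read 8.95, 9.06, 3.39 and 3.46 in GTML 1 to 4, against 9.37, 9.69, 9.05 and 9.35 in adult cerebellum 1 to 4. GTML 3 and 4 therefore lacked a Y-linked signal that GTML 1 and 2 and all adult samples had, and none of the 4 sex-linked genes was called with all tumours in the main setting. With all tumours Xist was called higher with array weights (4.20), with the gene table centred (4.07), without dim genes (3.87) and with the replicate block, and Eif2s3y was called lower with array weights (-3.47), with the mean of its probe sets (-2.90) and with the replicate block. Without GTML 1 or GTML 2, Xist was called higher (5.01 and 4.90) and Eif2s3y lower (-4.06 and -4.10). In settings chosen after the data had been seen, 9612 genes were called with GTML 1 and 2, which carry that signal, as the only tumours, and 9187 with GTML 1 and 3, against 10055 with all 4.

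Against the Ptch1-driven tumours 7848 genes (43.1%) were called, 4179 higher and 3669 lower in GTML. Beyond the lists above, Lamp5, a lysosomal membrane protein of neurons, read 11.38, 11.17, 9.98 and 9.81 in GTML 1 to 4, against 5.23, 5.04, 5.04 and 5.12 in adult cerebellum 1 to 4, and exceeded the Ptch1-driven tumours, near background, by at least 6.17 (limma adjusted p = 2.62e-15). Inhbb, an activin subunit, exceeded them by 5.58. Onecut2, a factor of early neurons and retina, was at least 90.1-fold above adult cerebellum and 3.15 above the Ptch1-driven tumours. Among the lowest, Sox1, a neural stem factor, read 3.62, 3.30, 3.40 and 4.28 in GTML 1 to 4, against 7.90, 7.49, 7.48 and 7.67 in adult cerebellum 1 to 4, near background in GTML, and lay at least 6.25 below those tumours. Fzd7, a WNT receptor, lay 6.09 below them and 4.61 below adult cerebellum. St18 and Gpr153 were 5.76 and 5.70 below the Ptch1-driven tumours and 5.81 and 1.95 below adult cerebellum. St18 ran 3.28 to 7.83 among the tumours, highest in GTML 4.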

How the data were processed

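The arrays measured RNA, extracted with the Qiagen AllPrep kit, on Affymetrix whole-genome mouse arrays. The authors summarised each probe set with RMA in Affymetrix Expression Console 1.3.1 and deposited the result as log2 levels of 45101 probe sets on 23 arrays. Whether all arrays were normalized together is not given in the sources used here, and the number of arrays limits the precision. All value columns matched a sample, so 0 were left unused.

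Genes were named from the platform annotation, with symbols brought up to date by Entrez identifier for 34754 of 34958 probe sets that have 1 gene. A further 932 had several genes and 9211 none, and these were left out. Each of 18194 genes was represented by the probe set whose mean level across all 23 arrays was highest, and 9182 genes had only 1. Of the 5844 called genes with several probe sets, 49 differed at least 2-fold on the main one and at least 2-fold the opposite way on another. Genes with a smaller difference on the main probe set were not counted.

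One limma fit (version 3.58.1 in R 4.3.3, lmFit and eBayes) held all 23 arrays in 6 groups. The contrasts were GTML minus adult cerebellum and GTML minus the mean of the MERP and Ptch1+/- groups, and p-values were adjusted by Benjamini-Hochberg over all genes. Tables and plots were made in Python 3.11.15 with pandas 2.3.3, numpy 2.4.6 and matplotlib 3.10.9. The fit was tested on simulated data with the same SD of a gene in every group. That test does not cover the unequal spread of GTML and adult cerebellum. The members, gene lists and tests were chosen with earlier results of these data known, so list counts are descriptions beside those of all genes. Named genes were the 15 highest and 15 lowest differences without overlap, a list of key genes, the 3 highest and 3 lowest called members of each list, the 10 highest and 10 lowest against the Ptch1-driven tumours, and the 10 with the highest SD among GTML tumours. Members named outside that rule were chosen after their values had been seen. Promoter windows came from RefSeq (GRCm38.p6), 250 bases before to 50 after the start, for 27025 genes. Only the first window listed for a gene was searched, on both strands. The core TAATCC was added after the values had been seen.

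Alternatives were other scalings and probe set rules, a filter on dim genes, other limma settings, the replicate number as a block and leaving out each array. GTML 1 and 2, or GTML 1 and 3, as the only tumours were added after the data had been seen. The groups share replicate numbers 1 to 4. The deviations of same-numbered samples correlated by 0.02, 0.10, 0.01 and 0.07, and those of differently numbered samples by -0.12 to 0.07. Whether same-numbered samples share more than a number was not tested.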

Additional observations from a re-analysis of the deposited data

Results flagged for a closer look

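In each group of 4 samples, the gap between the highest or lowest sample and its nearest neighbour was set against the range of the group, for 211 named genes (422 groups). In 23 groups 1 sample stood apart by this measure, 14 of them in GTML and 9 in adult cerebellum. In normal samples of genes not picked by their values, chance does so in about 1 group in 20. Some of these genes were named for their spread among GTML tumours or after their values had been seen. That rate is therefore no measure for these groups, and no cause was tested.

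GTML 2 was the lowest tumour in 7 of them. The gap as a share of the range was 0.909 for Aqp4, 0.932 for Csf1r, 0.923 for Fabp7, 0.857 for Gfap, 0.896 for Pkm, 0.868 for Slco1a4 and 0.851 for Sox2. Aqp4, for example, was 6.09 in GTML 2 and 9.68 to 10.04 in the other tumours, and Sox2 was 3.16 in GTML 2 and 7.07 to 7.76 in the others. GTML 4 was the highest tumour for Ttr (0.831), Nts (0.901) and Scn4b (0.848). GTML 1 was the highest for Car3 (0.948) and Stx1a (0.959) and the lowest for Bbc3 (0.891), and GTML 3 was the lowest for Lef1 (0.896), at 7.15 beside 8.08 to 8.18 in the other tumours.

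In adult cerebellum the samples that stood apart were adult cerebellum 1 for Fabp7 (0.929), Inhbb (0.980), Pax6 (0.932) and Sh3gl2 (0.907), adult cerebellum 2 for Mxd4 (0.849), adult cerebellum 3 for Gdf10 (0.891), Gjb6 (0.889) and Perp (0.946), and adult cerebellum 4 for Cdk6 (0.958). Cdk6 read 4.76 in that sample and 5.61 to 5.64 in the other adult samples, and the gap for Sh3gl2 was under 0.1 on the log2 scale.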

How the results depend on the processing

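The number of genes called between GTML and adult cerebellum was 10055 and ranged from 9366 to 9974 without any 1 array; asking for at least 2-fold left 5109. The share higher among the called was 49.4%, and 46.5% with arrays centred on all probe sets, 62.9% centred on the gene table, 50.4% with the mean of a gene's probe sets, 48.6% without dim genes, 46.3% with GTML 1 and 3 as the only tumours, 43.6% at 2-fold or more, and 48.2% to 50.6% without any 1 array. Against the Ptch1-driven tumours 7848 genes were called, 7277 to 7888 without any 1 array and 2514 at 2-fold or more. With the replicate number as a block 9826 genes were called against adult cerebellum and 48.7% of them were higher; the block lost the calls of Car3, Cdk6, Nts and Sst, which were also lost when only the groups compared were fitted, and it gained those of Xist and Eif2s3y. Of the list counts against adult cerebellum 2 moved by over 1.5 times: photoreceptor genes higher, 7 without dim genes, and antigen presentation genes higher, 2 with GTML 1 and 2 as the only tumours. Against the Ptch1-driven tumours the mitosis genes lower were 3 with the mean of probe sets and with array weights, the replication genes higher were 4 with GTML 1 and 3 as the only tumours and 6 to 11 without any 1 array, with 11 reached without GTML 1, and the photoreceptor genes higher were 7 without dim genes. Directions turned on the probe set with the highest SD for Anln (-0.79 against adult cerebellum and 0.64 against the Ptch1-driven tumours), Mga (-0.95 and -0.61), Orc1 (-0.10 against the Ptch1-driven tumours), Pdgfra (0.08) and Ptch1 (0.92), with the mean of probe sets for Anln (0.07 against the Ptch1-driven tumours) and Cd8a (0.04 against adult cerebellum and 0.05 against the Ptch1-driven tumours), and with GTML 1 and 3 for Gfap (1.06). The cause was not tested. Axin2 was called lower in 5 settings, at -0.25 to -0.42. Signals near background limit what can be said of genes at or below 4.48.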

Other observations

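Several of the genes furthest from adult cerebellum belong to none of the lists. Pbk, a mitotic kinase, read 11.72, 12.38, 12.16 and 12.18 in GTML 1 to 4, against 5.06, 6.05, 5.46 and 5.004 in adult cerebellum 1 to 4, a difference of 6.71 (limma adjusted p = 2.51e-17). Cdca5, the cohesin regulator sororin, and Aspm, of the spindle poles, rose by at least 6.78 and 6.46. Among the genes furthest below, Timp4, a metalloproteinase inhibitor, read 4.96, 3.60, 4.53 and 6.30 in GTML 1 to 4, against 12.16, 12.06, 11.84 and 11.97 in adult cerebellum 1 to 4. Gng13, a G protein subunit, fell by 7.08, Exph5 by 6.96 and Patj, a scaffold of cell polarity, by 6.65, while Nrk fell by at least 7.04. Car4, a carbonic anhydrase of brain capillaries and other cells, fell by 6.59. These genes were picked among those whose 4 GTML tumours do not overlap the 4 adult samples. Of all genes 26.8% had GTML above without overlap and 27.8% below. Vsnl1, a neuronal calcium sensor, read 9.38, 4.01, 8.58 and 10.47 in GTML 1 to 4, against 13.10, 13.01, 12.88 and 13.10 in adult cerebellum 1 to 4, lowest in GTML 2. It fell by 4.91, or by 3.55 without GTML 2. The unnamed transcripts Gm9918 and 4930447C04Rik stood at 8.90 to 9.49 and 8.57 to 10.42 in GTML, against 3.09 to 3.28 and 3.18 to 3.59 in adult cerebellum, and were at least 6.06 and 6.15 log2 units above the Ptch1-driven tumours.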
